A study of Mus musculus with 6 samples.

Results

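The genes described here are 40 members of the solute carrier families Slc2, Slc5, Slc13, Slc17, Slc20 and Slc34, which move sugars, phosphate, carboxylates, urate and sulfate across membranes. They were chosen by symbol, with earlier results of these data known. Members are the rows of the expression table with FPKM whose symbol was 1 of these family names followed by a member number. The expression table held 19659 rows with FPKM in all. Of 42 symbols that matched, Slc5a3 was left out by the choice of members and Slc2a7 held no FPKM. FPKM counts fragments relative to transcript length and to library size, so levels of different genes are compared here per length.

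RNA came from whole kidneys of mice at postnatal day 3. One group of 3 samples had the genotype R26NICD2/+Kspcre, called NICD2 here, and the other 3 samples were wild type. R26NICD2 places the intracellular domain of the receptor Notch2, which acts in the nucleus as an active Notch signal, at the Rosa26 locus. Kspcre expresses Cre from the Ksp-cadherin promoter, active in the epithelium of kidney tubules and the ureteric tree, so the allele is not switched on in every kidney cell. The labels name the controls only as wild type and do not say whether they carried either allele. Nor do they state whether each sample came from its own animal, so the p-values reflect sample-to-sample spread that could be partly technical. The series asks what active Notch2 signalling does in cyst growth of the kidney.

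The transgene row, named in the table for human Notch2, held 60.2 to 79.6 FPKM in NICD2 libraries and 0 to 0.03 FPKM in wild type libraries. The size of the steps in low FPKM put the depth at 15500000 to 16950000 fragments in each library. NICD2 replicate 3 held 0 FPKM for 4 Y-linked genes that the other 5 libraries expressed. The tissue label was checked against 20 proximal tubule markers, which all passed the filter on low values. Their summed level was 1552 to 1884 FPKM in NICD2 and 2053 to 2198 FPKM in wild type. The marker Kap alone gave 631 to 821 FPKM of this sum in NICD2 and 1003 to 1215 FPKM in wild type. As log2(FPKM + 1), the mean over the 20 markers was 5.26 to 5.47 in NICD2 and 5.41 to 5.59 in wild type, which overlap. Red cell markers summed to 6107 FPKM in wild type replicate 1, against 2283 to 3713 FPKM in the other libraries. Whole-kidney FPKM cannot tell fewer cells of a type from less RNA per cell.

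As background, the proximal tubule takes back most of the filtered glucose, phosphate and organic acids. Sodium-driven carriers of the Slc5, Slc34, Slc20 and Slc13 families bring the solute into the cell, most of them from the lumen across the apical membrane, and carriers that need no ion gradient, such as the glucose transporters of the Slc2 family, let it leave on the blood side. The Slc17 family holds apical transporters of urate and organic anions as well as transporters of lysosomes and synaptic vesicles.

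Of the 40 genes, 30 reached at least 1 FPKM in at least 3 libraries and were tested, and 10 did not. Slc34a1 was the most abundant by far, with a mean of 312 FPKM over the 6 libraries, 177th of all rows. The next were Slc17a1 at 23.4 FPKM, Slc2a1 at 21.3 FPKM and Slc20a2 at 20.7 FPKM, so Slc34a1 alone stood more than 10 times above each other member. A total of 12 members averaged at least 10 FPKM. Slc34a1 made up 98.7% of the summed level of its family, while the most abundant member of the Slc2 and Slc5 families made up 28.0% and 24.5% of theirs.

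**Figure D1:**
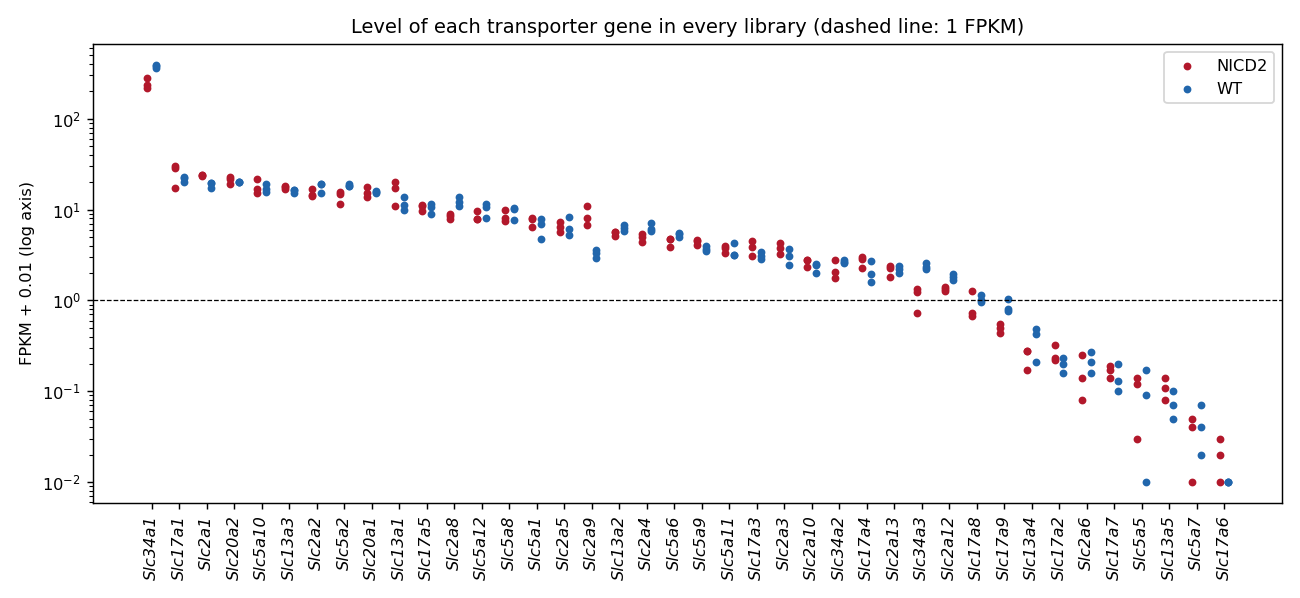
FPKM of each of the 40 transporter genes in every library on a log axis, ordered by mean, with the 3 NICD2 libraries left of the 3 wild type libraries for each gene and 0.01 added so that values of 0 can be drawn. Slc34a1 stands apart at 216 to 392 FPKM, and 10 genes at the right end lie mostly under the dashed line at 1 FPKM.

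In the test of NICD2 against wild type, 5 of the 30 members were called (16.7%), where 8.79% of all 13765 genes tested were called (limma, Benjamini-Hochberg adjusted p under 0.05 over all genes). Slc2a9 and Slc2a1 rose (6.67% of the members, against 4.93% of all genes tested). Slc34a1, Slc34a3 and Slc2a8 fell (10% of the members, against 3.86% of all genes tested). The members as a whole did not move one way: their median log2 fold change of FPKM + 1 was 0.01, beside -0.01 over all genes tested, with 16 above zero and 14 below. For 12 members the groups did not overlap (40%), where this held for 30.5% of all genes tested. These are counts over a list of 30, and whether the families differ from other genes was not tested. Fold changes are differences of log2(FPKM + 1) between NICD2 and wild type, with their SE, and are too small for genes at low levels because of the added 1.

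**Figure D2:**
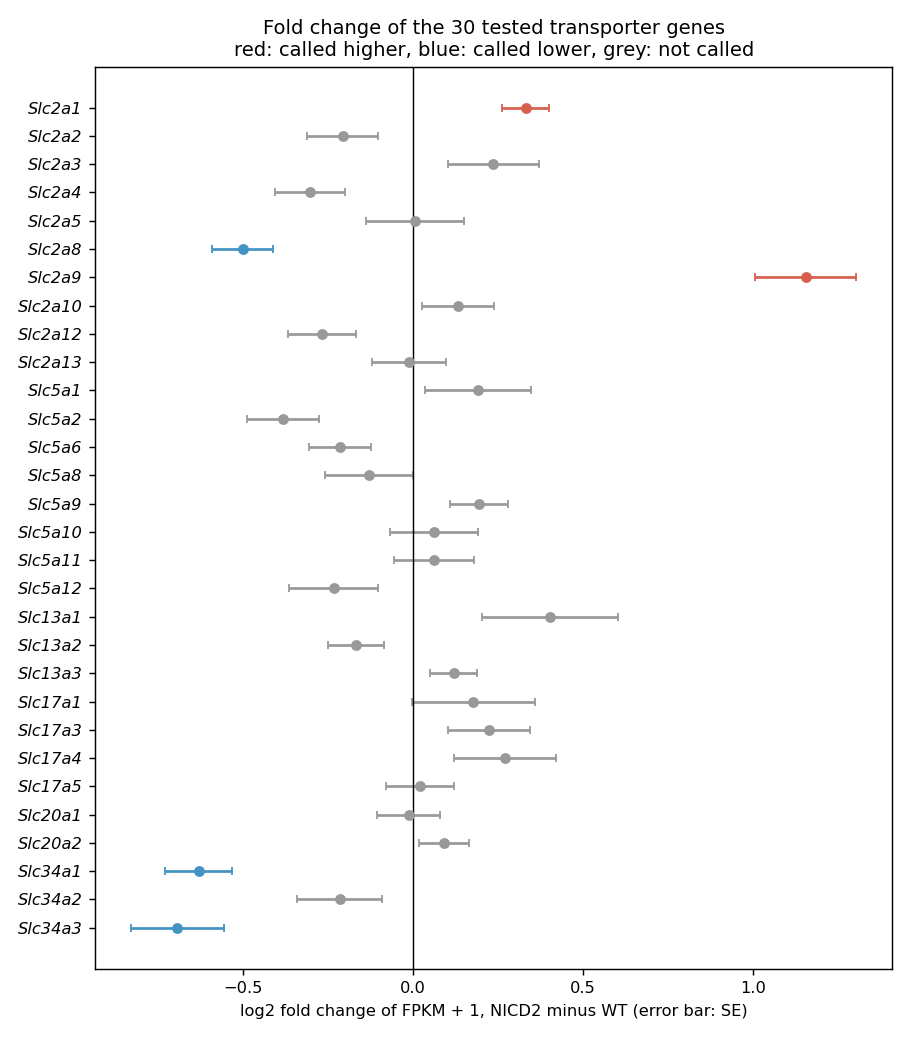
Log2 fold change of FPKM + 1, NICD2 minus wild type, with its SE for the 30 tested transporter genes in order of family. Slc2a9 at 1.15 and Slc2a1 at 0.33 were called higher, Slc34a1 at -0.63, Slc34a3 at -0.69 and Slc2a8 at -0.50 were called lower, and the 25 in grey were not called.

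Slc34a1 and Slc34a3, the Slc34 phosphate cotransporters of the proximal brush border, fell. Slc34a1 encodes NaPi-IIa, the main route of phosphate reabsorption in the rodent kidney (gene 20505, chromosome 13, 55399622 to 55414695 on GRCm38). Its level was 216, 282 and 238 FPKM in the NICD2 libraries, against 378, 392 and 365 FPKM in the wild type libraries. All 3 NICD2 values lay below all 3 wild type values. The NICD2 mean of 245 ± 33.7 FPKM was 64.9% of the wild type mean of 378 ± 13.3 FPKM (SD, n = 3 each; log2 fold change -0.63 ± 0.10, limma adjusted p = 0.00579).

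Slc34a3, which encodes NaPi-IIc, the other renal member of the family (gene 142681, chromosome 2, 25228897 to 25234271), was expressed at a far lower level. It was at 0.72, 1.34 and 1.24 FPKM in NICD2 and at 2.21, 2.54 and 2.35 FPKM in wild type, so the groups did not overlap and NICD2 replicate 1 was the lowest. The mean was 1.10 ± 0.333 FPKM in NICD2 and 2.37 ± 0.166 FPKM in wild type (SD, n = 3 each), 46.5% of the wild type level (log2 fold change -0.69 ± 0.14, limma adjusted p = 0.0167). By the estimated depth these values rest on about 26 to 47 fragments per NICD2 library and 73 to 90 per wild type library. The call was lost without wild type replicate 2 or 3 (adjusted p = 0.0759 and 0.0564), in a range of 0.0129 to 0.0759 over all alternatives that gave a value.

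Slc34a2 encodes NaPi-IIb, the phosphate transporter of lung and intestine. It was not called, at 2.75, 1.74 and 2.05 FPKM in NICD2 and 2.56, 2.67 and 2.76 FPKM in wild type (log2 fold change -0.22 ± 0.13, limma adjusted p = 0.327). NICD2 replicate 1 lay within the wild type range and the other two NICD2 libraries under it.

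The Slc20 family, the type III sodium-phosphate cotransporters of nearly all cells, is a contrast within the same transport function. Slc20a1 (PiT-1) was at 13.71, 17.83 and 15.03 FPKM in NICD2 and at 15.48, 15.99 and 15.3 FPKM in wild type (log2 fold change -0.01 ± 0.09, limma adjusted p = 0.952). Slc20a2 (PiT-2) was at 19.3, 22.9 and 21.8 FPKM in NICD2 and at 19.9, 19.9 and 20.1 FPKM in wild type (log2 fold change 0.09 ± 0.07, limma adjusted p = 0.493). For both genes the NICD2 values lay on both sides of the wild type values. The level of Slc20a2 relative to that of Slc34a1, a ratio chosen after the values were seen, was 0.0812 to 0.0916 in NICD2 and 0.0507 to 0.0551 in wild type.

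The fall of Slc34a1 was set beside the proximal tubule markers, which moved the same way in part. Of the 20 markers, 6 fell and 1 rose, where 3.86% and 4.93% of all genes tested did. The median log2 fold change of the markers was -0.11, and the list was not tested against other genes. Kap, a kidney androgen-regulated protein, was at 676, 631 and 821 FPKM in NICD2 and at 1215, 1003 and 1057 FPKM in wild type. The amino acid carriers Slc7a7 and Slc7a8, the aminopeptidase Anpep, the water channel Aqp1 and the organic anion carrier Slc22a13 fell too, to 59.6% to 76.5% of wild type. With no filter on low values, or without wild type replicate 2, 3 markers were called lower in place of 6. The endocytic receptor Lrp2 and the gluconeogenic enzymes Fbp1 and Pck1 were not called (limma adjusted p = 0.623, 0.763 and 0.981). Slc22a8, Slc6a19 and Dpep1 were not called either, but all their NICD2 values lay below all wild type values (adjusted p = 0.163, 0.234 and 0.181). The groups overlapped for the other uncalled markers. Slc4a4, the basolateral sodium bicarbonate carrier, rose, at 26.95 ± 2.27 FPKM in NICD2 and 14.7 ± 2.77 FPKM in wild type (SD, n = 3 each). Taken as a distance from the mean log2 level of the 20 markers in the same library, Slc34a1 was at 2.43 to 2.83 in NICD2 and at 3.03 to 3.15 in wild type. The 2 groups of distances did not overlap, and the share of proximal cells in the fall of Slc34a1 was not tested.

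A list of 18 genes for the control of renal phosphate transport had 14 tested members. Of these, 3 rose and 3 fell, where 4.93% and 3.86% of all genes tested did, and the median log2 fold change was -0.07. Stc2, which encodes the secreted glycoprotein stanniocalcin 2, moved the most. It was at 15.97, 15.53 and 15.44 FPKM in NICD2 and at 3.60, 4.33 and 3.43 FPKM in wild type (log2 fold change 1.80 ± 0.09, limma adjusted p = 1.1e-05). Its relative Stc1 fell, at 5.75 ± 0.468 FPKM in NICD2 and 7.78 ± 0.327 FPKM in wild type (limma adjusted p = 0.0215).

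Of 4 scaffold genes of the brush border in the list, 2 were called, where 8.79% of all genes tested were. Slc9a3r1 (NHERF1), which holds NaPi-IIa at the apical membrane, was at 85.0 ± 9.04 FPKM in NICD2 and 61.6 ± 3.28 FPKM in wild type (limma adjusted p = 0.0129). Ezr (ezrin), which ties NHERF1 to actin, was at 209.6 ± 20.6 FPKM in NICD2 and 159 ± 6.89 FPKM in wild type (limma adjusted p = 0.0207). Both rose, while Pdzk1, another scaffold of the same carriers, was not called, at 88.4 to 94.7 FPKM in NICD2 and 101 to 114 FPKM in wild type (adjusted p = 0.0757). Slc9a3r2 (NHERF2), a relative of NHERF1, was at 59.03, 63.35 and 57.51 FPKM in NICD2 and at 85.08, 74.09 and 67.86 FPKM in wild type, without overlap and not called (log2 fold change -0.33 ± 0.09, limma adjusted p = 0.0552).

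Of the hormone receptors, Pth1r, the receptor of parathyroid hormone, was at 70.3, 83.4 and 74.5 FPKM in NICD2, against 110, 108 and 104 FPKM in wild type (log2 fold change -0.49 ± 0.07, limma adjusted p = 0.00479). Fgfr1, a receptor used by the phosphate-lowering hormone Fgf23, was at 38.0 ± 1.27 FPKM in NICD2 and 47.02 ± 1.68 FPKM in wild type (adjusted p = 0.0173). Both fell. The Fgf23 co-receptor Kl was at 34.1 to 38.1 FPKM in NICD2 and 29.2 to 41.9 FPKM in wild type (adjusted p = 0.977). Fgf23 RNA itself stayed at or below 0.11 FPKM in every library, which is no measure of the hormone in blood. Cyp24a1 of the list was at 24.39, 9.68 and 10.78 FPKM in NICD2 and 4.83, 6.70 and 8.08 FPKM in wild type. Cyp27b1 was at 1.46 to 1.74 FPKM in NICD2 and 2.03 to 2.88 FPKM in wild type. Neither overlapped between groups and neither was called (limma adjusted p = 0.0853 and 0.0649). Without wild type replicate 2 or 3, 1 gene of the list was called higher in place of 3. Without NICD2 replicate 2 or 3 or wild type replicate 2, 1 was called lower in place of 3.

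**Figure D3:**
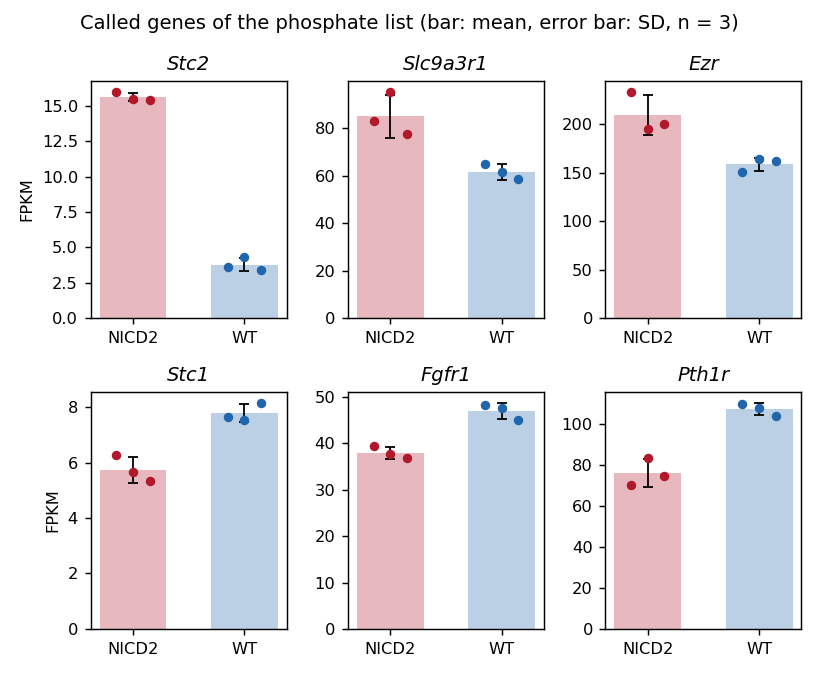
FPKM of the 6 called genes of the phosphate list in each library (points), with the mean as a bar and the SD as an error bar, 3 libraries per group and a separate axis from 0 for each gene. Stc2, Slc9a3r1 and Ezr lie higher in NICD2, and Stc1, Fgfr1 and Pth1r lie lower, with no overlap between groups for any of them.

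Among the facilitative transporters of the Slc2 family, Slc2a9 rose the most of all 30 members. It encodes GLUT9, which carries urate rather than glucose across the tubule cell and is made as forms with different first exons (gene 117591, chromosome 5, 38349273 to 38503151 on GRCm38). Slc2a9 was at 10.9, 6.78 and 8.03 FPKM in NICD2 and at 2.90, 3.56 and 3.28 FPKM in wild type. Every NICD2 library lay above every wild type library, and the NICD2 libraries were spread more widely. The mean was 8.58 ± 2.13 FPKM in NICD2 and 3.25 ± 0.331 FPKM in wild type (SD, n = 3 each), a ratio of means of 2.64 (log2 fold change 1.15 ± 0.15, limma adjusted p = 0.00223). The gene-level values do not separate its forms.

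Slc2a1 encodes GLUT1, the glucose transporter of red cells, endothelium and growing epithelium (gene 20525, chromosome 4, 119108745 to 119137330). It was at 23.5, 24.3 and 23.9 FPKM in NICD2 and at 19.4, 19.8 and 17.2 FPKM in wild type, with no overlap and little spread in NICD2. The ratio of means was 1.27 (log2 fold change 0.33 ± 0.07, limma adjusted p = 0.0227). Removing NICD2 replicate 1, 2 or 3 or wild type replicate 3 ended the call of Slc2a1, with adjusted p of 0.0195 to 0.0725 over all alternatives. None of the 6 tested red cell markers was called. Wild type replicate 1, with the highest red cell sum, was at 19.4 FPKM of Slc2a1, between wild type replicates 3 and 2 at 17.2 and 19.8 FPKM. The part of red cells in the Slc2a1 values was not tested. Of 6 endothelial markers, Emcn and Tek fell and none rose, where 3.86% of all genes tested fell and 4.93% rose. The summed level of the 6 markers was 197 to 219 FPKM in NICD2 and 244 to 269 FPKM in wild type.

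Slc2a8, which encodes GLUT8, a sugar transporter of intracellular membranes (gene 56017, chromosome 2, 32972989 to 32982056), fell. It was at 8.42, 7.91 and 8.84 FPKM in NICD2 and at 13.9, 11.1 and 12.1 FPKM in wild type, with no overlap. The mean was 8.39 ± 0.466 FPKM in NICD2 and 12.3 ± 1.42 FPKM in wild type (SD, n = 3 each), 68.0% of the wild type level (log2 fold change -0.50 ± 0.09, limma adjusted p = 0.0112).

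Slc2a2 encodes GLUT2, through which glucose leaves the early proximal tubule. It was at 14.6, 14.14 and 16.96 FPKM in NICD2 and at 15.18, 18.98 and 19.2 FPKM in wild type, overlapping groups that were not called (log2 fold change -0.21 ± 0.11, limma adjusted p = 0.262). The level of Slc2a1 relative to Slc2a2, chosen after the values were seen, was 1.41 to 1.72 in NICD2 and 0.895 to 1.28 in wild type. Slc2a4 encodes GLUT4, the insulin-regulated transporter of fat and muscle, and the table places its row on no chromosome. It was at 4.35, 5.42 and 5.04 FPKM in NICD2 and at 7.19, 6.05 and 5.75 FPKM in wild type. The groups did not overlap, but the gene was not called (log2 fold change -0.30 ± 0.10, limma adjusted p = 0.112). Fat cell markers, of which 7 of 9 were tested and none was called, summed to 331 to 389 FPKM in NICD2 and 380 to 490 FPKM in wild type. Most of that sum was Fabp4, at 306 to 349 FPKM in NICD2 and 342 to 436 FPKM in wild type. No other fat cell marker was above 17.6 FPKM in any library. Both Slc2a4 and the sum were highest in wild type replicate 1. The part of fat cells in the Slc2a4 values was not tested. Lep, the fat hormone leptin, was at or below 0.21 FPKM in all libraries.

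The fructose transporter Slc2a5 (GLUT5) was at 5.70 to 7.38 FPKM in NICD2 and 5.30 to 8.22 FPKM in wild type. Slc2a3 (GLUT3), a glucose transporter best known from neurons, was at 3.77 FPKM in NICD2 and 3.06 FPKM in wild type on average. The neuron and glia markers varied from 5.01 to 18.9 FPKM in sum in NICD2 and from 6.72 to 27.6 FPKM in wild type. Slc2a10 was at 2.62 FPKM in NICD2 and 2.31 FPKM in wild type, and the proton-coupled inositol transporter gene Slc2a13 was at 2.17 FPKM in NICD2 and 2.19 FPKM in wild type. Slc2a12 (GLUT12) was at 1.25 to 1.40 FPKM in NICD2 and 1.67 to 1.96 FPKM in wild type, without overlap. None of these 5 genes was called (limma adjusted p = 0.986, 0.315, 0.493, 0.961 and 0.139 in the order given).

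**Figure D4:**
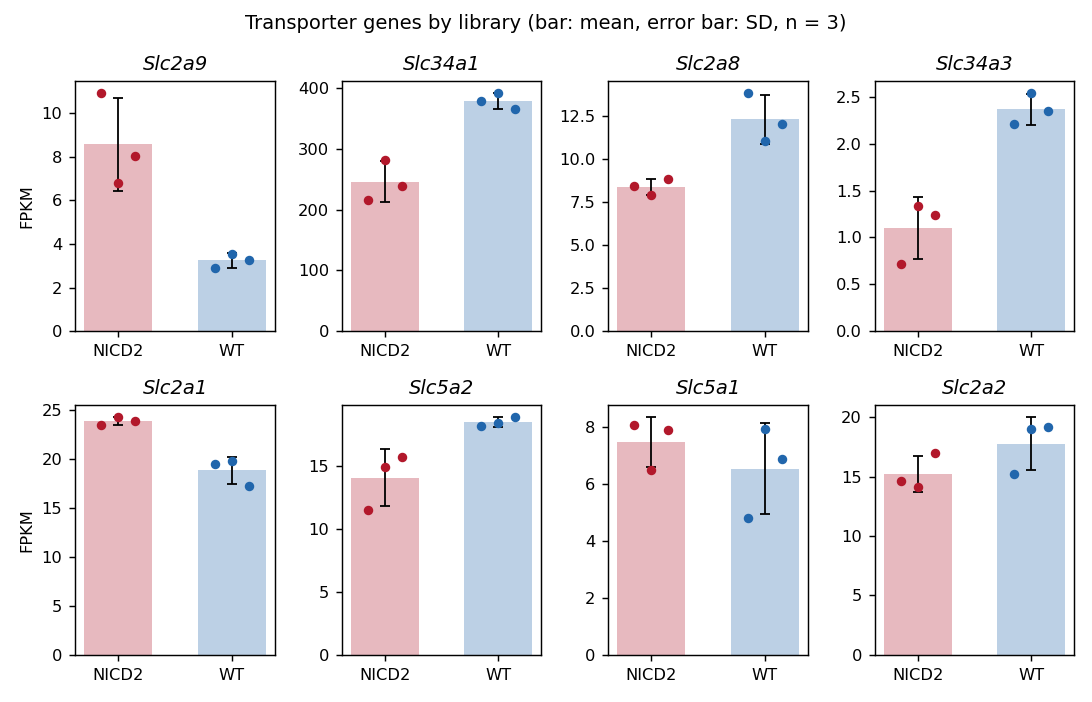
FPKM in each library (points) with the mean as a bar and the SD as an error bar for the 5 called transporter genes, and for Slc5a2, Slc5a1 and Slc2a2, which were not called, with 3 libraries per group and a separate axis from 0 for each gene. The groups do not overlap for Slc2a9, Slc34a1, Slc2a8, Slc34a3, Slc2a1 and Slc5a2, and do overlap for Slc5a1 and Slc2a2.

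The promoters of the 5 called genes are printed to show what the regions before their starts hold, since 2 of these genes rose and 3 fell. Each is the 250 bases before a RefSeq start on GRCm38.p6, 5′ to 3′ along the gene's strand. Capitals would mark TGGGAA or its reverse complement, the core bound by RBPJ, the DNA-binding partner of the Notch intracellular domain, and none of the 5 windows holds it.
Slc34a1 (chr13:55399398-55399647, plus strand): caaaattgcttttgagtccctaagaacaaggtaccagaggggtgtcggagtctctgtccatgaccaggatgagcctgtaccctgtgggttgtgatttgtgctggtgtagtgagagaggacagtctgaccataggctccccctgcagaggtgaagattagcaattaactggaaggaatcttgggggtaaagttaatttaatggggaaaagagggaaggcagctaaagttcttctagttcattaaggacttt
Slc34a3 (chr2:25234235-25234484, minus strand): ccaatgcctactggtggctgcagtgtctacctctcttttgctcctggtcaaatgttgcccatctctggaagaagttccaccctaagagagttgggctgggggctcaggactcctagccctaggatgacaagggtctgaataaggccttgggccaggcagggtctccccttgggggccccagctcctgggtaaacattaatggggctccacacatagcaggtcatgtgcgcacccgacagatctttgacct
Slc2a9 (chr5:38483386-38483635, minus strand): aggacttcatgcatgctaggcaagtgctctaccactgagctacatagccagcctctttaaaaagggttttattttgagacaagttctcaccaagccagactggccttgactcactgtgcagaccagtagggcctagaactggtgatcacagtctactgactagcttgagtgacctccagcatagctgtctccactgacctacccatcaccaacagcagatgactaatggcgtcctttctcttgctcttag
Slc2a8 (chr2:32982084-32982333, minus strand): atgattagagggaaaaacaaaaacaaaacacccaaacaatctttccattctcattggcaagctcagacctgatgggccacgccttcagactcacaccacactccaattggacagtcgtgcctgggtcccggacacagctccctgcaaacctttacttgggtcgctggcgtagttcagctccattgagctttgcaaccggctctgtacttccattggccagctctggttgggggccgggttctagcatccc
Slc2a1 (chr4:119108495-119108744, plus strand): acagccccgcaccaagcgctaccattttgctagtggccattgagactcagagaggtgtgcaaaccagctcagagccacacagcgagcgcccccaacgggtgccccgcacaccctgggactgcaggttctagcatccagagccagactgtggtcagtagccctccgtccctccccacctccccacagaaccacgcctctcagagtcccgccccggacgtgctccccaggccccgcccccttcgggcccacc

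The RefSeq table held 38 windows for 31 of the 40 members, and 5 of these windows (13.2%) held TGGGAA on either strand, against 21.6% of all 32851 windows. They belonged to Slc13a3, Slc17a1, Slc17a2, Slc20a1 and Slc5a6, of which Slc17a2 was not tested and the others were not called. A direct repeat bound by HNF4 was in none of the 38 and in 0.0335% of all windows. Slc34a1, Slc34a3 and Slc2a9 had 1, 2 and 1 CpG in these windows, and Slc2a8 and Slc2a1 had 7 and 13, beside a median of 6 over all windows. Letters that match show no binding, letters that do not match say nothing of the factor, and the window for Slc2a9 covers 1 start only.

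The Slc5 family holds sodium-glucose cotransporters as well as carriers of lactate, inositol and vitamins. None of its 8 tested members was called, and their median log2 fold change was -0.03. Slc5a2 encodes SGLT2, which takes up most filtered glucose in the early proximal tubule (gene 246787, chromosome 7, 128265697 to 128272433). It was at 11.5, 14.9 and 15.7 FPKM in NICD2 and at 18.15, 18.35 and 18.89 FPKM in wild type. Every NICD2 library lay below every wild type library, yet the adjusted p was 0.0614 (limma log2 fold change -0.38 ± 0.11). Slc5a2 was called without NICD2 replicate 3 (adjusted p = 0.0408) and under the stricter filter (adjusted p = 0.0477). A term for NICD2 replicate 3, the library at 0 for Y-linked genes, nearly repeats the fit without it (adjusted p = 0.0411). The range was 0.0408 to 0.159 over all alternatives. Its row shares 1055 bases with BC017158 on the opposite strand, at 13.5 FPKM in NICD2 and 15.9 FPKM in wild type, and reads of the pair cannot be told apart where strand was not used. The rows of Slc5a10, Slc5a6, Slc20a2, Slc34a1 and Slc2a12 overlap a gene on the opposite strand as well, by 25869, 285, 180, 8 and 4 bases.

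Slc5a1 (SGLT1), the cotransporter of the later proximal tubule, was at 7.47 ± 0.874 FPKM in NICD2 and 6.52 ± 1.60 FPKM in wild type (SD, n = 3 each; log2 fold change 0.19 ± 0.16, limma adjusted p = 0.501). The level of Slc5a2 relative to Slc5a1 was 1.43 to 2.306 in NICD2 and 2.314 to 3.80 in wild type, a ratio chosen after the values were seen, so the groups lay next to each other without overlap. Slc5a10 (SGLT5), a kidney carrier of mannose and fructose, was at 21.86, 15.23 and 16.96 FPKM in NICD2 and at 19.03, 16.81 and 15.43 FPKM in wild type (adjusted p = 0.811). Slc5a9 (SGLT4) was at 4.06 to 4.56 FPKM in NICD2 and 3.49 to 3.96 FPKM in wild type, without overlap and not called (adjusted p = 0.199). The inositol carrier gene Slc5a11 was at 3.70 FPKM in NICD2 and 3.52 FPKM in wild type.

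The monocarboxylate members Slc5a8 and Slc5a12, which take up lactate along the proximal tubule, were at 8.53 ± 1.27 and 8.43 ± 1.08 FPKM in NICD2, against 9.43 ± 1.49 and 10.1 ± 1.80 FPKM in wild type (SD, n = 3 each; limma adjusted p = 0.586 and 0.314). The vitamin carrier gene Slc5a6 was at 3.89 to 4.74 FPKM in NICD2 and 5.03 to 5.56 FPKM in wild type, without overlap and not called (adjusted p = 0.188). Slc5a5, the iodide transporter of the thyroid, and Slc5a7, the choline transporter of nerve endings, stayed at or below 0.16 FPKM in all 6 libraries.

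None of the 3 tested carboxylate and sulfate transporters of the Slc13 family was called. Slc13a1, the renal sodium-sulfate cotransporter gene, was at 17.4, 10.9 and 19.9 FPKM in NICD2 and at 9.84, 13.7 and 11.3 FPKM in wild type. Replicates 1 and 3 of NICD2 lay above the wild type range and replicate 2 lay within it (log2 fold change 0.40 ± 0.20, limma adjusted p = 0.253). Without NICD2 replicate 2, Slc13a1 was called (adjusted p = 0.0319), in a range of 0.0319 to 0.529 over all alternatives. Slc13a3 (NaDC3), the basolateral dicarboxylate carrier, was at 17.59, 16.68 and 18.38 FPKM in NICD2 and at 15.03, 16.61 and 16.59 FPKM in wild type (adjusted p = 0.328). Slc13a2 (NaDC1), the apical citrate carrier, was at 5.13 to 5.72 FPKM in NICD2 and 5.85 to 6.83 FPKM in wild type (adjusted p = 0.251). Groups did not overlap for either of these 2 genes. Slc13a4 and the liver citrate transporter gene Slc13a5 were at or below 0.47 FPKM in all libraries.

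In the Slc17 family, 4 of 9 members were tested and none was called. Slc17a1 (NPT1), a urate transporter of the proximal brush border first cloned as a phosphate transporter, was at 30.04, 17.16 and 28.46 FPKM in NICD2 and at 20.15, 22.02 and 22.6 FPKM in wild type. Replicates 1 and 3 of NICD2 lay above and replicate 2 below all wild type libraries (log2 fold change 0.18 ± 0.18, limma adjusted p = 0.592). Without NICD2 replicate 2 the gene was called higher (adjusted p = 0.0227), in a range of 0.0227 to 0.946 over the 6 fits that left out a library.

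Its neighbours on chromosome 13, Slc17a3 and Slc17a4, were at 3.83 ± 0.725 and 2.69 ± 0.399 FPKM in NICD2, against 3.11 ± 0.252 and 2.08 ± 0.575 FPKM in wild type (SD, n = 3 each; limma adjusted p = 0.297 and 0.304). NICD2 replicate 2 was the lowest of its group for both. Slc17a2, in the same stretch of chromosome 13 from 23806940 to 23915009, was at 0.15 to 0.31 FPKM in all libraries. Slc17a5, which encodes the lysosomal sialic acid exporter sialin, was at 10.99, 9.6 and 11.08 FPKM in NICD2 and at 9, 10.67 and 11.59 FPKM in wild type (adjusted p = 0.924). The vesicular transporters were low throughout. The vesicular glutamate transporter genes Slc17a6 and Slc17a7 were at or below 0.19 FPKM, Slc17a8 was at 0.66 to 1.27 FPKM in NICD2 and 0.96 to 1.15 FPKM in wild type, and the nucleotide transporter gene Slc17a9 was at 0.43 to 0.54 FPKM in NICD2 and 0.75 to 1.03 FPKM in wild type. Below the filter on low values, Slc17a9 was not tested, and its values rest on about 16 to 21 fragments per NICD2 library and 29 to 37 per wild type library. Slc2a6 was the last of the 10 untested genes, at 0.07 to 0.26 FPKM.

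**Figure D5:**
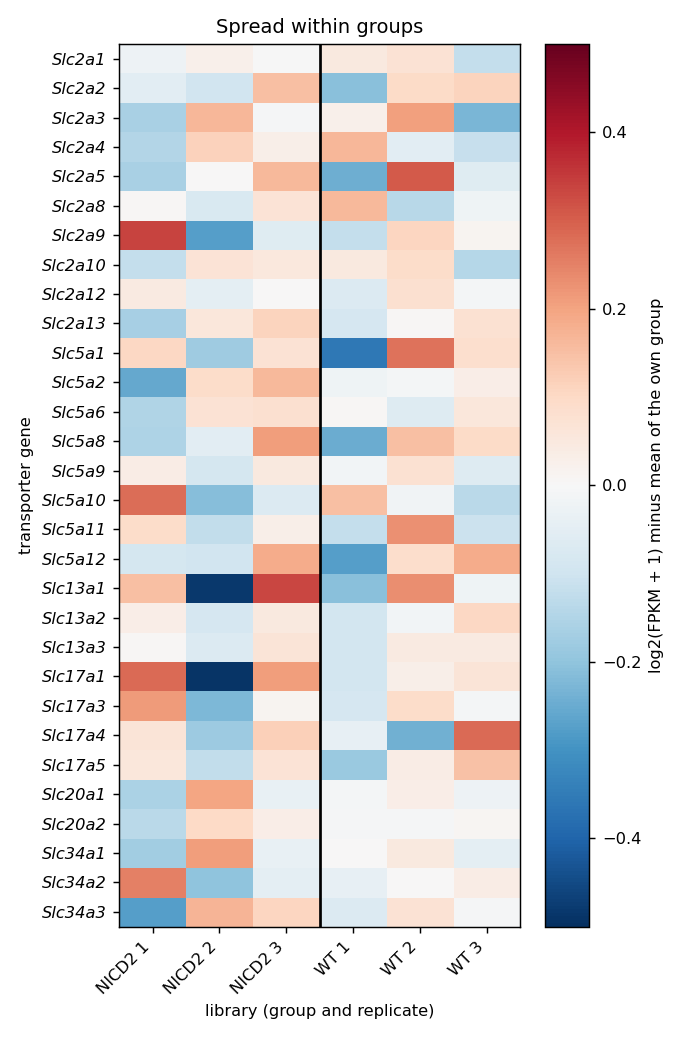
Difference of log2(FPKM + 1) from the mean of the own group for the 30 tested transporter genes (rows) in the 3 NICD2 and the 3 wild type libraries (columns), red above and blue below the group mean. NICD2 replicate 2 is lowest for Slc13a1, Slc17a1, Slc17a3 and Slc17a4 and highest for Slc34a1, Slc34a3, Slc20a1 and Slc20a2, and wild type replicate 1 is lowest for Slc2a2, Slc5a1, Slc5a8 and Slc5a12.

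The members also varied within groups. In NICD2 replicate 2, 17 of the 30 members had their lowest NICD2 value (56.7%, against 31% of all genes tested), among them all 3 tested Slc13 genes and all 4 tested Slc17 genes. The same library had the highest NICD2 values of Slc34a1, Slc34a3 and both Slc20 genes, and no test of family was run. NICD2 replicate 3 was lowest for none of the members, against 35.8% of all genes tested. In wild type, replicate 1 was lowest for 18 members (60%, against 36% of all genes tested), with Slc2a2, Slc5a1, Slc5a8 and Slc5a12 among them. That library also held the highest red cell sum, and the part of red cell RNA in these values was not tested.

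Other genes of the same pathways were read from lists. Of all genes tested, 4.93% were called higher and 3.86% lower, and none of these lists was tested against those shares. Of 9 transcription factors linked to proximal transporters, 8 were tested and only Maf fell, at 36.1 ± 4.08 FPKM in NICD2 and 50.1 ± 1.46 FPKM in wild type (SD, n = 3 each; limma adjusted p = 0.0111). Hnf4a was at 33.3 to 35.3 FPKM in NICD2 and 32.9 to 41.2 FPKM in wild type (adjusted p = 0.459). Of 20 genes of glycolysis and fructose breakdown, 1 rose (Pgk1) and 1 fell (Pfkm), near the shares of all genes tested. The median log2 fold change of this list was 0.03. Pgk1 was at 179 ± 4.34 FPKM in NICD2 and 149.9 ± 1.85 FPKM in wild type, and Pfkm at 18.1 ± 1.06 FPKM in NICD2 and 21.6 ± 0.420 FPKM in wild type (adjusted p = 0.0273 and 0.0499). Pgk1 lost its call without NICD2 replicate 1 or 2 or wild type replicate 2 or 3, and Pfkm in each of the 6 fits with 1 library left out.

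Of 10 tested genes that sort or control glucose transporters, Stxbp3, a syntaxin-binding protein of GLUT4 vesicle fusion, rose (15.2 ± 1.62 FPKM in NICD2 and 11.1 ± 0.596 FPKM in wild type, limma adjusted p = 0.0213), and lost its call without NICD2 replicate 1 or wild type replicate 1 or 2. Txnip, which limits glucose uptake, was at 222 to 269.8 FPKM in NICD2 and 277 to 321 FPKM in wild type, and was not called (adjusted p = 0.0878). Of 12 tested genes of urate and citrate handling, Idh1 rose, at 91.75 ± 1.27 FPKM in NICD2 and 64.1 ± 4.64 FPKM in wild type (SD, n = 3 each; adjusted p = 0.00248). The urate carriers Slc22a12 and Abcg2 were not called beside the rise of Slc2a9. Slc22a12 was at 30.8 to 34.65 FPKM in NICD2 and 25.15 to 33.2 FPKM in wild type, and Abcg2 at 37.3 to 43.6 FPKM in NICD2 and 33.7 to 43.1 FPKM in wild type (adjusted p = 0.273 and 0.822).

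Among the remaining cell type markers, 1 of 5 tested leukocyte genes rose, Itgam at 1.22 ± 0.261 FPKM in NICD2 and 0.543 ± 0.126 FPKM in wild type (SD, n = 3 each; limma adjusted p = 0.0484), a call lost in each of the 6 fits with 1 library left out. The leukocyte list summed to 26.8 to 32.2 FPKM in NICD2 and 26.4 to 30.9 FPKM in wild type, with Ly6g at 0 in all NICD2 libraries. None of the 3 tested neuron and glia genes was called.

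By the DEGseq q-values of the authors' deposited table, 25 of 39 members with a q-value were under 0.05, where 48.9% of all genes with a q-value were. The authors' deposited table gave Slc2a9 a log2 fold change of 1.40, Slc34a3 one of -1.11, Slc34a1 one of -0.56, Slc2a8 one of -0.55 and Slc2a1 one of 0.34. It also gave Slc5a2 a q of 4.143e-20 at a log2 fold change of -0.43, and Slc13a1 and Slc17a1, whose libraries spread widely, q-values of 4.938e-19 and 4.961e-08.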

How the data were processed

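RNA from whole kidneys at postnatal day 3 was extracted with Trizol and made into Illumina TruSeq libraries, per the labels' protocols. The authors deposited 1 table of FPKM to 2 decimals for 6 samples, with longest-transcript lengths as another deposited value. Per the file headers it also holds a log2 fold change and q-value (the authors' p-values after adjustment) from DEGseq. Bowtie 0.12.2 and mm8 are named in the submitters' processing notes, whereas the table's chromosome accessions are those of GRCm38. Not given in the sources used here are the program that made the FPKM and its handling of strand and of reads shared by genes. A further 27 columns comparing pairs of samples were not used.

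Of 23669 rows, 4010 held no FPKM. Of rows sharing a symbol, 1 was left out. Depth was taken as the library size that put most FPKM of short, low, single-transcript genes on whole fragments (within 0.15), with 120 bases taken off each transcript. In each library 72.6% to 75.8% of such values were then whole, where 30% are by chance at a size fixed in advance. The size and the bases taken off were picked to make this share highest, so 30% is too low a reference. The 13765 genes that reached 1 FPKM in 3 or more libraries were fitted as log2(FPKM + 1) with limma 3.58.1 (R 4.3.3), mean-variance trend, genotype as the only term, two-sided, Benjamini-Hochberg adjusted over all genes, threshold 0.05. The fit was also run on simulated data with independent noise for each gene and library. That simulation does not cover shifts shared by many genes of a library. No batch is labelled. Alternatives were a pseudocount of 0.1, no filter, 1 FPKM in all 6 libraries, median-ratio scaling, no trend, the replicate number as a block, a term for NICD2 replicate 3, which lacks Y-linked transcripts, and each library left out. That term fits NICD2 replicate 3 alone, so it nearly repeats the fit without that library and is no separate check. Tables and figures used Python 3.11.15, pandas 2.3.3 and matplotlib 3.10.9.

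Members and lists were chosen with earlier results of these data known. Every library's value is given for members called, averaging at least 10 FPKM, or with groups that do not overlap and a log2 fold change whose size reaches 0.3. Of the lists, called genes may be named; other list genes, and the ratios between members, were chosen after their values were seen. Promoters are from RefSeq (GRCm38.p6). One gene of the lists and the motifs that go with it are not reported here.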

Additional observations from a re-analysis of the deposited data

How the results depend on the processing

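Slc2a9, Slc34a1 and Slc2a8 kept their direction and their call under all 13 alternatives, with adjusted p up to 0.0143, 0.0303 and 0.0420 and log2 fold changes without 1 library of 0.98 to 1.29, -0.74 to -0.54 and -0.57 to -0.42. Among the 13, the term for NICD2 replicate 3 and the fit without that library are nearly the same fit. No member's call reversed. Over the fits without 1 library, 1 to 3 members were called higher and 2 to 4 lower, and 624 to 985 genes of all tested (1210 in full), with 729 without NICD2 replicate 1, 624 without wild type replicate 2 and 780 without wild type replicate 3. Slc2a1 was called in 2 of these 6 fits, and the cause was not tested. With the term for NICD2 replicate 3, at 0 for Y-linked genes, 1 member was called higher, without Slc2a1 (adjusted p = 0.0590), and 4 lower, with Slc5a2 (adjusted p = 0.0411). The fit without that library gave the same counts. The stricter filter gave no value for Slc34a3, which was under 1 FPKM in NICD2 replicate 1. Median-ratio scaling moved no library by more than 0.0108 on the log2 scale.

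The replicate number as a block left 2 members called higher and 3 lower, and 1055 genes over all. The deviations of same-numbered libraries from their group means correlated at -0.033, 0.059 and -0.045, and no library correlated best with its own number. With 3 libraries per group these values cannot tell a weak pairing from none, and the labels do not state a pairing. With the block, 0 genes of glycolysis were called in either direction, 0 leukocyte genes higher, 1 fat cell gene and 1 endothelial gene lower.

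In the proximal tubule list 3 genes were called lower with no filter, and 3 to 5 without 1 library. In the phosphate list 5 genes were called lower under the stricter filter and 1 with the Y-linked term, and without 1 library 1 to 3 were higher and 1 to 4 lower. In the glycolysis list 2 were higher with no trend and 0 lower with a pseudocount of 0.1, no filter, median-ratio scaling or the Y-linked term; without 1 library 0 to 1 were higher and 0 lower. Of genes controlling glucose transporters, 0 to 1 were higher and 0 to 1 lower without 1 library. Genes of the red cell list called lower were 1 under the stricter filter or the Y-linked term and 0 to 1 without 1 library. In the main fit the lowest limma adjusted p of that list was 0.0547, for Slc4a1, and the next was 0.549. Slc4a1 was at 1.38 to 4.62 FPKM in NICD2 and at 7.02, 6.91 and 5.84 FPKM in wild type replicates 1, 2 and 3. The globin Hba-a1 was at 2647, 1286 and 1092 FPKM in the same wild type libraries and overlapped between groups. Slc4a1 thus did not follow the globin across wild type, and the part of red cells in its values was not tested. Fat cell genes called lower were 1 under the stricter filter, 2 with the Y-linked term and 0 to 2 without 1 library. Leukocyte genes called higher were 0 with a pseudocount of 0.1 or the Y-linked term, and 0 without 1 library. The stricter filter gave 0 as well, since it left Itgam out of the test. Endothelial genes called lower were 1 with no filter and 1 to 2 without 1 library. Members near 1 FPKM rest on few fragments per library, 26 to 90 for Slc34a3 and 74 to 118 for Slc2a12.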
